A study of Homo sapiens with 8 samples.

Results

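Genes for splicing factors and RNA helicases were chosen by symbol, from the prefixes of the SR, HNRNP, SNRP, SF3, PRPF, LSM, RBM, DDX and DHX families and their relatives. The rule itself used no measured value, but it was set with earlier results of these data known. Over the 3 deposited tables it took 80 of 3656 genes and 234 of 7615 pairs of poly(A) sites, with 218 sites in the 80 genes. Of the 24 prefixes, U2AF, CLK and SON matched no listed gene, and neither HNRNPC nor PABPC4 had a listed pair. The name fits most members but not each of them. DDX58 (RIG-I) is an innate sensor of viral RNA, and LSM12, LSM14A and LSM14B are not among the Sm-like proteins of the spliceosome.

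The MDA-MB-231 line, which comes from a human breast cancer lacking the 3 main receptors, was used, and in it CRISPR interference (a catalytically dead Cas9 fused to a KRAB repressor) lowered HNRNPC, PABPC4 or both. The 4 groups were control cells with a pair of non-targeting guides, cells with knockdown (KD) of HNRNPC, cells with KD of PABPC4, and cells with both (double KD), each group with 2 samples. All groups carried the same dead Cas9 system and grew in the same medium. Poly(A) site use was read by 3′-end sequencing (QuantSeq REV), and each table compared 1 knockdown with the same control samples. One table has a mixed name and was assigned to PABPC4 KD because the other 2 belong to HNRNPC KD and double KD. The tables give no value per library, so the spread between the 2 samples of a group cannot be read, and the knockdown itself cannot be checked in them.

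Most human genes can end their mRNA at more than 1 place, and the choice of poly(A) site sets which 3′ untranslated region, and sometimes which last exon, the mRNA carries. Splicing and 3′-end cleavage are coupled at the last intron, where a proximal site can be used before an intron is removed. SR proteins and hnRNPs are RNA-binding proteins that steer both choices, and many of their own genes produce transcripts with retained introns or premature stop codons. HNRNPC is an abundant nuclear hnRNP that binds runs of U, and PABPC4 is a poly(A)-binding protein.

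The measure, logAPAR, sets proximal over distal reads in a knockdown against the same quotient in control, on a natural log scale. A negative value marks a shift toward the distal site. Member pairs numbered 190 from 67 genes in HNRNPC KD, 168 from 68 genes in PABPC4 KD and 203 from 74 genes in double KD. Across tables, 60 of the 80 genes were listed in all 3, and 46 genes had only 2 sites, while SRSF10, at 6, had as many as any member. The median Wald standard error of member pairs was 0.705, 0.664 and 0.714 in the 3 tables, beside 0.814, 0.806 and 0.82 for all pairs. At that error, a member pair had to move by about 1.82, 1.71 and 1.84 on the natural log scale to pass p 0.01, and a smaller shift could pass only at a pair with a smaller error.

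The sequences below are the last 30 bases of transcript ends of the called members, 5′ to 3′ on the gene's strand, read from hg38 at the Gencode release 44 end of the named transcript. Capitals mark AATAAA or ATTAAA, the main forms of the poly(A) signal, where 1 lay in these 30 bases. The SRSF10 ends are in the order of transcription.
SRSF10 ENST00000343255.9, chr1:23969083-23969112, minus strand: aaacatgctatAATAAAaacaaaatgaagg
SRSF10 ENST00000453840.7, chr1:23966445-23966474, minus strand: cgAATAAAtaacttttatagtatcacaaaa
SRSF10 ENST00000344989.10, chr1:23964804-23964833, minus strand: aAATAAActggtctaggagccaaaAATAAA
SRSF4 ENST00000466448.4, chr1:29148671-29148700, minus strand: actgaccgctcccagtccagatctccatcc
SRSF4 ENST00000634348.1, chr1:29147853-29147882, minus strand: tctggtattgtgattatattgttttatatt
SRRM2 ENST00000301740.13, chr16:2771383-2771412, plus strand: tctgtcaAATAAAaatgagaaatgcaggaa
HNRNPF ENST00000337970.7, chr10:43386022-43386051, minus strand: ttttttcttaaAATAAAgactttttcacaa
HNRNPF ENST00000443950.6, chr10:43385617-43385646, minus strand: agtttttataaaatgctgatttaaactttt
DDX51 ENST00000397333.4, chr12:132136594-132136623, minus strand: cctttttgcttATTAAActtctgctccaaa

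Of the 112 transcript-named member sites, 101 had the same transcript version in release 44 and were placed on hg38. Their ends lay in the 3′ UTR of the canonical transcript in 77 cases, in a coding exon in 18 and downstream of the canonical transcript in 6. AATAAA or ATTAAA stood within 50 nt before 65.3% of the member ends (95% Wilson interval 55.7 to 73.9) and 68% of all 4218 placed ends. Retained-intron transcripts made up 15.8% of member ends (9.99 to 24.2) and 9.39% of all ends, and transcripts marked for nonsense-mediated decay 9.9% and 6.83%. A run of at least 5 T within 100 nt before the end was found at 37.6% of member ends and 34.5% of all ends. The 20 nt after the end were A-rich, with at least 6 A in a row or at least 12 A, at 10.9% of member ends and 9.55% of all ends. An oligo(dT) primer can start on such genomic A runs inside a transcript, so they are given beside each result they touch. The 106 member sites named by a position use a build that is not hg38 and that the files do not name (2 of the 106 fell inside their gene on hg38), so no sequence was read there.

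In HNRNPC KD, 2 of the 190 member pairs passed p 0.01, 1.05% beside 2.08% of all pairs. In PABPC4 KD, 1 of 168 passed, 0.595% beside 0.756%. In double KD, 9 of 203 passed, 4.43% beside 4.33%. Counted as genes, 2 of 67 (2.99%, beside 3.47% of all genes), 1 of 68 (1.47%, beside 1.46%) and 5 of 74 (6.76%, beside 6.96%) had a called pair. The members were thus called at a share near the background in double KD and PABPC4 KD, and at a lower count of pairs in HNRNPC KD. In double KD the share of pairs leaned on SRSF10, which gave 5 of the 9 calls from pairs that share sites. Without it 4 calls remained, so the share of pairs was near the background only with SRSF10 counted and lay below it otherwise. In double KD, 6 calls went toward the distal site (2.96% of member pairs, beside 2.48% of all) and 3 toward the proximal site (1.48%, beside 1.86%). All p-values of single tables are two-sided Wald p-values of the deposited APAlog fits, which rest on reads pooled over a group, and adjusted p-values are Benjamini-Hochberg over each whole table. No exact test over samples could be run, since no library has values of its own, so these p-values do not measure the spread between samples.

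At an adjusted p of 0.05, no member pair passed in HNRNPC KD (0.427% of all pairs did) or in PABPC4 KD (0.0168%), while 5 member pairs from 3 genes passed in double KD (2.46%, beside 2.23%). At an unadjusted p of 0.05 the member counts were 8 pairs in HNRNPC KD (4.21%, beside 6.77% of all pairs), 7 in PABPC4 KD (4.17%, beside 4.03%) and 27 in double KD (13.3%, beside 9.12%). The 27 pairs came from 16 genes, and 7 of them were pairs of SRSF10. With 1 pair per gene, the median logAPAR of the members was 0.169 in double KD, 0.0731 in HNRNPC KD and 0.0513 in PABPC4 KD, beside -0.00604, 0.012 and -0.00133 over all genes. Values below 0 made up 41.9%, 40.3% and 44.1% of the member genes, beside 50.2%, 49.3% and 50.2% of all genes. The 95% order-statistic intervals of the member medians were -0.0842 to 0.391, -0.00473 to 0.225 and -0.112 to 0.177. Each interval held the median over all genes. Over all member pairs the medians were -0.0804, 0.00666 and -0.0368, so the sign of the first and last depended on which pairs were taken.

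**Figure D1:**
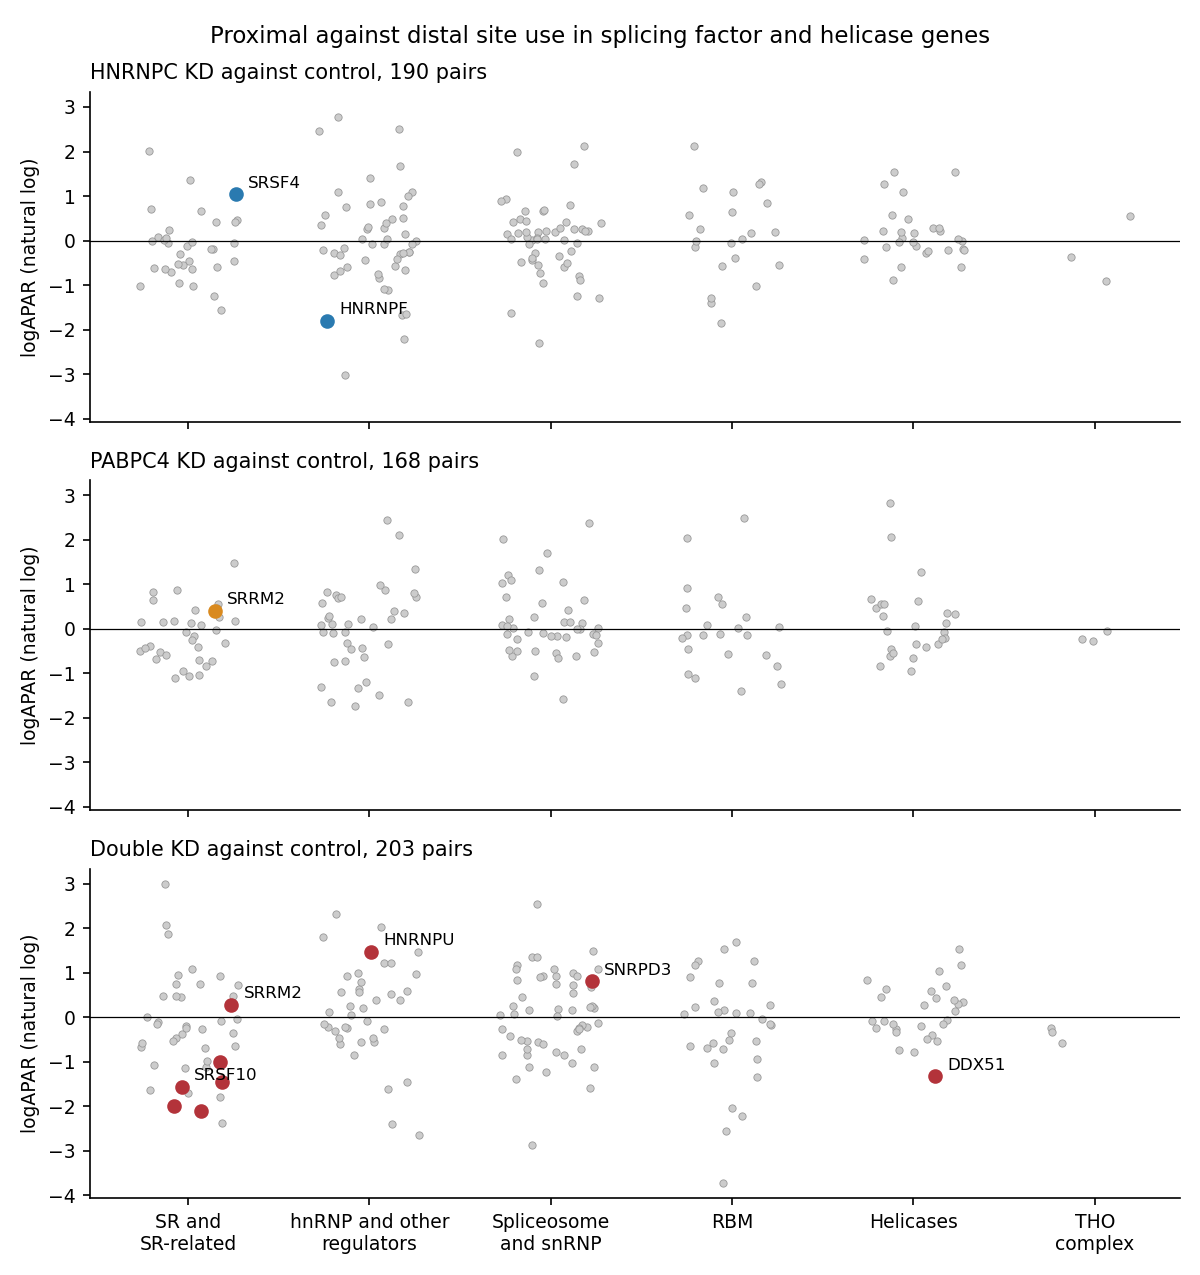
logAPAR (natural log; negative is toward the distal site) of every listed member pair in HNRNPC KD, PABPC4 KD and double KD against control, by role of the gene, with horizontal scatter for legibility. Grey points did not pass p 0.01; the 2, 1 and 9 coloured points did, and 5 of the 9 in double KD belong to SRSF10.

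SR proteins bind exonic enhancers and recruit the spliceosome. Together with their SR-related relatives they held 11 genes and 44 pairs. They gave 1 call of 34 pairs in HNRNPC KD (SRSF4, 2.94%, beside 2.08% of all pairs) and 1 of 34 in PABPC4 KD (SRRM2, 2.94%, beside 0.756%). In double KD they gave 6 of 43 (14%, beside 4.33%), 5 of them toward the distal site in SRSF10 and 1 toward the proximal site in SRRM2, so the share rested on the 5 pairs of 1 gene, which share sites. Of the 7 SRSF genes alone, 5, 6 and 7 were listed in HNRNPC KD, PABPC4 KD and double KD, with 28, 29 and 35 pairs. Their logAPAR ran from -1.55 to 2.02 in HNRNPC KD, from -1.11 to 1.48 in PABPC4 KD and from -2.1 to 3 in double KD. SRSF1, SRSF3, SRSF5, SRSF6 and SRSF11 had no call where they were listed. Beside the shares over all pairs, these pair counts are too small to set the 5 genes apart.

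SRSF10 (ENSG00000188529, chr1:23964347-23980927, minus strand) encodes an SR protein that represses splicing when it is dephosphorylated. Its 6 listed sites belong to transcripts with different last exons. ENST00000338597.9, ENST00000485841.5 and ENST00000343255.9 end within an upstream last exon that begins at 23971439, at 465, 1061 and 2357 nt into it. ENST00000374453.7 ends in a last exon that begins at 23967956, and ENST00000453840.7 and ENST00000344989.10 in 1 that begins at 23967723, at 1279 and 2920 nt into it. In the canonical transcript all 6 ends lie in the 3′ UTR. ENST00000485841.5 is annotated as a retained-intron transcript, and ENST00000338597.9 has no defined coding sequence.

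Because SRSF10 had 3 or more sites in every table, the reads behind the ratios could be solved from the errors and ratios of the 3 tables. They are normalized reads with both samples of a group summed, and over the 24 member genes where this could be done a gene held 13.2 to 937 of them in a group. The retained-intron end (ENST00000485841.5) held 36.9 reads in double KD, beside 71.6 in control, 72.4 in HNRNPC KD and 74.3 in PABPC4 KD. As a share of the gene's reads this was 41.6% in control (95% Wilson interval 34.5 to 49.1), 44.8% (37.3 to 52.5) in HNRNPC KD, 42.1% (35.1 to 49.5) in PABPC4 KD and 19.1% (14.2 to 25.2) in double KD. The end was thus the most used site in control and both single knockdowns, and the interval of double KD lay below the intervals of all 3 other groups. The intervals cover counting error only.

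The share of 3 other ends was higher in double KD than in control, with intervals that overlapped at the first pair of them and were apart at the last. ENST00000453840.7 took 36.1%, 38.1%, 31.5% and 45.5% of the reads in control, HNRNPC KD, PABPC4 KD and double KD. ENST00000343255.9, the far end of the upstream last exon, took 8.78%, 4.61%, 13.4% and 17.2%. ENST00000344989.10, the most distal end, took 4.03%, 7.29%, 7.26% and 13.6%. The 2 remaining ends stayed at or below 6.97% in every group. The ends were also summed by the annotated last exon of the named transcript. The 3 upstream ends held 57.4% of reads in control (49.9 to 64.5), 52.1% in HNRNPC KD and 59.6% in PABPC4 KD. In double KD they held 39.2% (32.6 to 46.3). The downstream ends held the other 60.8% in double KD and 42.6% in control. All of these ends also lie in the 3′ UTR of the canonical transcript. Reads at a downstream end therefore do not show which last exon the transcript carried, and a switch between last exons was not tested. The share of ENST00000343255.9 rose although it is an upstream end, as is the retained-intron end. The shift was thus not only 1 from the upstream to the downstream ends.

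**Figure D2:**
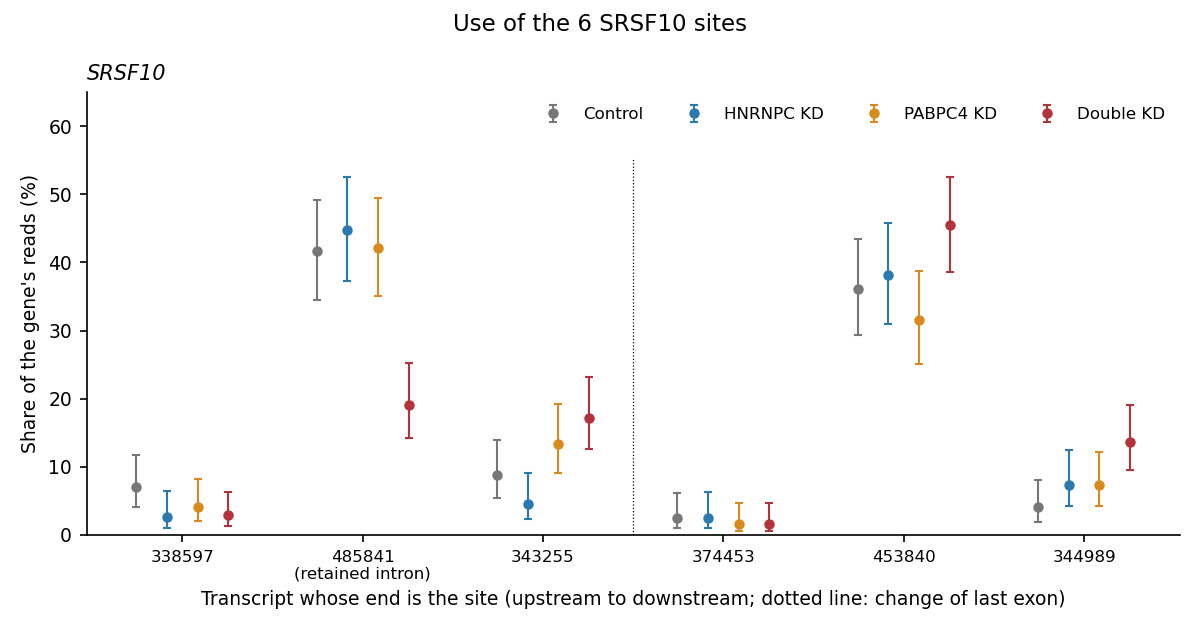
Share of SRSF10 reads (%) at each of its 6 sites in control, HNRNPC KD, PABPC4 KD and double KD, from upstream to downstream; points are shares and bars 95% Wilson intervals of normalized reads with both samples summed. The retained-intron end, next to the left, sits between 41.6% and 44.8% in 3 groups and at 19.1% in double KD.

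The shares were solved from the same ratios and errors that the tests rest on, so shares and tests are not independent. In double KD the retained-intron end lost to ENST00000344989.10, 5575 nt downstream, by a logAPAR of -1.99 (Wald SE 0.473, adjusted p of 0.00221). It lost to ENST00000343255.9, 1296 nt downstream, by -1.45 (SE 0.37, adjusted p of 0.00642), and to ENST00000453840.7, 3934 nt downstream, by -1.01 (SE 0.262, adjusted p of 0.00804). As ratios of proximal to distal reads, these were 0.136, 0.234 and 0.364 of the control ratio. The same 3 pairs had a logAPAR of -0.52, 0.717 and 0.0189 in HNRNPC KD and of -0.577, -0.407 and 0.147 in PABPC4 KD, none past p 0.01 (smallest p of 0.133). The other 2 called pairs set ENST00000338597.9 against ENST00000344989.10 (-2.1, SE 0.667, adjusted p of 0.065) and against ENST00000343255.9 (-1.56, SE 0.599, adjusted p of 0.222). These 2 pairs had the same sign in the single knockdowns. The first gave -1.55 (p of 0.0354) in HNRNPC KD and -1.11 (p of 0.0958) in PABPC4 KD, and the second -0.313 (p of 0.663) and -0.938 (p of 0.102). The 5 pairs share sites and are not independent of each other.

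The retained-intron end of SRSF10 has no AATAAA or ATTAAA in the 50 nt before it, and 15 A follow it directly on hg38, with 16 A in the next 20 nt. The ends that gained reads, ENST00000343255.9, ENST00000453840.7 and ENST00000344989.10, carry their nearest signal 19, 28 and 6 nt before the end. At ENST00000344989.10 it forms the last 6 bases, and a further AATAAA lies upstream in the bases shown. None of these ends met the A-rich limit, though 10 A stand in the 20 nt after ENST00000343255.9, 3 of them directly after it. Whether reads at the retained-intron end began at a poly(A) tail or at the 15 A after it was not tested.

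SRRM2 (ENSG00000167978, chr16:2752626-2772538, plus strand) encodes a large SR-related scaffold of nuclear speckles. It had 1 listed pair, ENST00000576415.5 against ENST00000301740.13, and moved toward the proximal site in each table. logAPAR was 0.235 (SE 0.1, adjusted p of 0.556) in HNRNPC KD, 0.41 (SE 0.0986, adjusted p of 0.0643) in PABPC4 KD and 0.282 (SE 0.0964, adjusted p of 0.118) in double KD. The unadjusted p-values were 0.0189, 3.24e-05 and 0.00347, so PABPC4 KD and double KD passed p 0.01 and none passed an adjusted p of 0.05. The proximal to distal ratio was 1.26, 1.51 and 1.33 times the control ratio. The 3 tables share the control samples, so the common sign is not independent. The pair was deeply read for a member, since errors of this size need at least 99.9 reads at each site. The proximal transcript is not in release 44 and was not placed.

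SRSF4 (ENSG00000116350, chr1:29147743-29181900, minus strand), another SR protein, had 1 pair and moved toward the proximal site in HNRNPC KD. logAPAR was 1.04 (SE 0.39, p of 0.00791, adjusted p of 0.442) there, 0.433 (SE 0.402) in PABPC4 KD and 0.481 (SE 0.383) in double KD. The proximal site is the end of ENST00000466448.4 within a coding exon, and the distal site, 818 nt downstream, is the end of the retained-intron transcript ENST00000634348.1. Neither end has a canonical signal within 50 nt. The distal end is followed by 6 A and holds 16 A in the next 20 nt, and the part of this A-rich sequence in the result was not tested.

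The hnRNPs package nascent RNA and compete with SR proteins for splice sites. They and other splicing regulators (PTBP3, CELF1, MBNL1, MBNL2 and KHDRBS1) made up 16 genes and 58 pairs, with 1 call of 51 in HNRNPC KD (HNRNPF), none of 39 in PABPC4 KD and 1 of 39 in double KD (HNRNPU). The 11 HNRNP genes ranged in logAPAR from -3.03 to 2.78, from -1.74 to 2.45 and from -2.64 to 2.31 in the 3 tables. These 11 genes held 42, 31 and 31 pairs, and the 9 other than HNRNPF and HNRNPU had no called pair. Beside the shares over all pairs, such pair counts are too small to set the 9 genes apart. HNRNPDL, which makes an alternatively spliced 3′ UTR, came nearest in double KD (logAPAR 2.03, SE 0.873, p of 0.0198 for its best pair).

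HNRNPF (ENSG00000169813, chr10:43385617-43409186, minus strand) binds G-rich RNA and regulates splicing and polyadenylation. Nearly all of its reads, 86.2% to 91.3%, ended at ENST00000337970.7. The end 405 nt farther, ENST00000443950.6, held 2.58 reads in control, against 13.4 (HNRNPC KD), 14.5 (PABPC4 KD) and 16.6 (double KD), or 0.764% (0.241 to 2.4), 4.4% (2.61 to 7.33), 4.11% (2.49 to 6.73) and 3.25% (2.03 to 5.16) of the gene. The control interval lay below the intervals of both single knockdowns and overlapped that of double KD. logAPAR of this pair was -1.8 (SE 0.685, p of 0.00852) in HNRNPC KD, -1.74 (SE 0.681, p of 0.0106) in PABPC4 KD and -1.46 (SE 0.673, p of 0.0301) in double KD, with adjusted p-values of 0.442, 0.951 and 0.445. All 3 values rest on the same 2.58 control reads. With so few control reads the size of the shift is loosely set, as the 95% Wald interval of -3.14 to -0.459 in HNRNPC KD shows.

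HNRNPU (ENSG00000153187, chr1:244840638-244864560, minus strand) encodes a nuclear matrix hnRNP. Its called pair joined sites at 245014471 and 245011306 in the tables' own coordinates, 3165 nt apart. The distal site held 13.6, 8.9, 11.7 and 5.45 reads in control, HNRNPC KD, PABPC4 KD and double KD, and the proximal site 24, 34.2, 31.1 and 42. logAPAR was 0.772 (SE 0.507) in HNRNPC KD, 0.405 (SE 0.483) in PABPC4 KD and 1.47 (SE 0.568, p of 0.00973, adjusted p of 0.225) in double KD. The main HNRNPU site, ENST00000640218.2, held 66.1%, 62.2%, 61.8% and 68.7% of reads in the 4 groups, with overlapping intervals.

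Components of the spliceosome and of snRNPs, the RNA-protein particles that recognize splice sites, were grouped by prefix as 19 genes and 63 pairs. The prefixes also brought LSM12, LSM14A and LSM14B, which are not among these components, into the group. The group had no call in HNRNPC KD (51 pairs, beside 2.08% of all pairs) or PABPC4 KD (43 pairs, beside 0.756%). In double KD it had 1 call of 56 pairs, SNRPD3 (1.79%, beside 4.33%). The core Sm protein gene SNRPD3 (ENSG00000100028, chr22:24555958-24582052, plus strand) was the best-read member among the solved genes. Its first site, at 24968129 in the tables' coordinates, held 694, 713, 668 and 869 reads in control, HNRNPC KD, PABPC4 KD and double KD, and the next, 459 nt farther, held 70, 57.4, 62.4 and 39. The second site thus took 8.86% (7.07 to 11), 7.26% (5.65 to 9.28), 8.18% (6.44 to 10.3) and 4.17% (3.06 to 5.65) of the gene. The interval of double KD lay below those of control and PABPC4 KD and met that of HNRNPC KD at its edge. logAPAR was 0.225 (SE 0.186) in HNRNPC KD, 0.0788 (SE 0.182) in PABPC4 KD and 0.809 (SE 0.206, adjusted p of 0.00642) in double KD, a proximal to distal ratio 2.25 times that of control. A gene on the same strand overlaps SNRPD3 in the annotation, and reads of the 2 genes cannot be told apart there.

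The SF3A and SF3B subunits of the U2 snRNP had no call. They are counted in the spliceosome group above, where SNRPD3 alone was called, so this does not set them apart. SF3A3 came nearest in HNRNPC KD (logAPAR -0.547, SE 0.236, p of 0.0207), with -0.171 in double KD and 0.000334 in PABPC4 KD. The 14 RBM genes, named for an RNA-binding motif, had no call in any table, nor did THOC2 of the THO export complex. The RBM genes had 22, 23 and 33 pairs in HNRNPC KD, PABPC4 KD and double KD, and THOC2 had 3 in each. Over all pairs 2.08%, 0.756% and 4.33% were called, so these pair counts are too small to set the genes apart. For THOC2, the pair of smallest p gave -0.589 (SE 0.266, p of 0.0267) in double KD.

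Helicases of the DDX and DHX families, which use ATP to remodel RNA in splicing, ribosome assembly and translation, numbered 19 genes and 32 pairs. They had no call in HNRNPC KD (29 pairs, beside 2.08% of all pairs) or PABPC4 KD (26 pairs, beside 0.756%). In double KD 1 of 29 pairs was called (3.45%, beside 4.33%). DDX51 (ENSG00000185163, chr12:132136594-132144319, minus strand), a helicase of ribosomal RNA maturation, moved toward its distal site, the end of ENST00000397333.4, which carries ATTAAA 19 nt before it. logAPAR was -0.591 (SE 0.353, p of 0.0937) in HNRNPC KD, -0.413 (SE 0.344, p of 0.23) in PABPC4 KD and -1.33 (SE 0.365, adjusted p of 0.017) in double KD. The ratio in double KD was 0.265 of the control ratio. The gene has 2 sites only, so its reads could not be solved, and the errors need at least 8.45 reads at each site in PABPC4 KD.

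**Figure D3:**
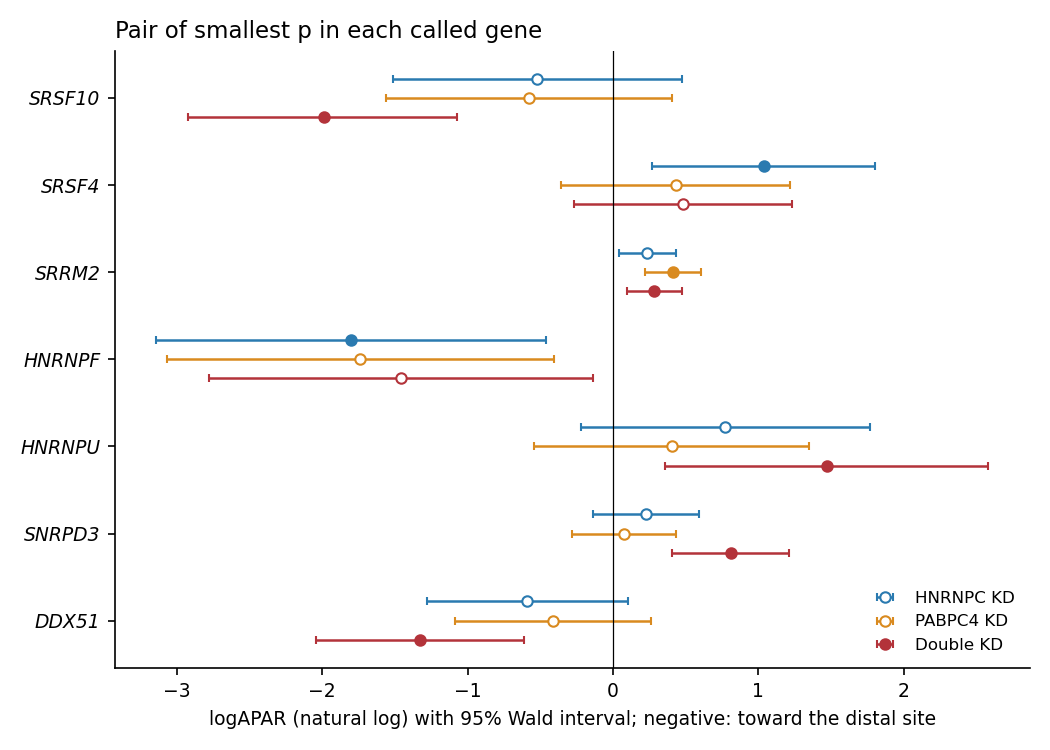
logAPAR (natural log) with 95% Wald intervals of the pair of smallest p in each of the 7 called genes, in HNRNPC KD, PABPC4 KD and double KD; filled points passed p 0.01. For SRSF10, HNRNPU, SNRPD3 and DDX51 the double KD value (-1.99, 1.47, 0.809 and -1.33) lies farther from 0 than either single knockdown. The pairs of these genes had their smallest p in double KD, so this follows in part from how the pairs were chosen. The 3 values of SRRM2 and HNRNPF lie close together.

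Double KD was then compared with each single knockdown at the pairs they share, which removes the control. With the errors of both tables added, an upper bound since the shared control is counted again, 2 of 162 member pairs differed between double KD and PABPC4 KD (1.23%, beside 1.72% of all pairs). They were SRSF10 ENST00000485841.5 against ENST00000453840.7 (difference -1.16, SE 0.361, p of 0.00133, adjusted p of 0.157) and the SNRPD3 pair (0.73, SE 0.275, p of 0.00796, adjusted p of 0.498). Between double KD and HNRNPC KD, 2 of 163 differed (1.23%, beside 1.43%), both in SRSF10. The retained-intron end differed by -2.17 (SE 0.604, p of 0.000329, adjusted p of 0.0708) against ENST00000343255.9 and by -1.03 (SE 0.359, p of 0.00412) against ENST00000453840.7. From the sum of the single knockdowns on the log scale, 1 of 155 member pairs departed (0.645%, beside 1.04%). It was again ENST00000485841.5 against ENST00000453840.7 in SRSF10, by -1.18 (SE 0.436, p of 0.007, adjusted p of 0.782).

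With the error taken from the solved reads, which is smaller and can be had for 120 member pairs, 5 pairs differed between double KD and PABPC4 KD (4.17%, beside 5.57% of the solved pairs). They were 3 of SRSF10, the SNRPD3 pair (adjusted p of 0.0263) and 1 of DDX18, a helicase of ribosome assembly (-1.82, SE 0.693, p of 0.00871, adjusted p of 0.168). By the upper-bound error the DDX18 pair had p of 0.0571. Its proximal and distal sites held few reads, 11.1 and 5.44 in PABPC4 KD and 6.44 and 19.4 in double KD. SRSF10 ENST00000485841.5 against ENST00000453840.7 had an adjusted p of 0.00123. Between double KD and HNRNPC KD, 5 pairs differed (4.17%, beside 3.55%), 4 of SRSF10 and that of SNRPD3 (0.584, SE 0.214, p of 0.00626, adjusted p of 0.219). The largest SRSF10 difference, against ENST00000343255.9, reached an adjusted p of 0.000345. From the sum, 3 of the 120 departed (2.5%, beside 2.34%), 2 of SRSF10 and 1 of HNRNPF. The HNRNPF departure was 2.08 (SE 0.777, p of 0.00737, adjusted p of 0.363), with p of 0.0769 by the upper-bound error. All logAPAR values of that pair rest on the same 2.58 control reads. None of the 3 departing pairs passed an adjusted p of 0.05. DDX51 had no solved reads, and its double KD value was not past p 0.01 against either single knockdown by the upper-bound error. Nor was that of the called HNRNPU pair, with p of 0.154 against PABPC4 KD and p of 0.36 against HNRNPC KD by the same error.

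Among the 24 member genes whose reads could be solved (86 sites), the most used control site changed its share by -14.8 to 19.4 percentage points in HNRNPC KD, by -32.8 to 4.5 in PABPC4 KD and by -31.9 to 13.1 in double KD, with medians of -1.1, -3.6 and -0.8. The widest changes in PABPC4 KD and double KD were in PRPF38B, a spliceosome component with few reads. Its main end took 52.6% in control (31.2 to 73) and 20.7% in double KD (8.21 to 43.2), intervals that overlapped. DDX46, a helicase of the U2 snRNP, was chosen here after its values were seen. Its main site is a retained-intron end (ENST00000503946.1), which held 57.2 reads (72.3%, 61.6 to 80.9) in control, 37.9 (74.1%) in HNRNPC KD and 29.3 (64.9%) in PABPC4 KD. In double KD it held 15.8 (49.5%, 33.1 to 65.9). The best pair of DDX46 did not pass p 0.01 (1.17 toward the proximal site, SE 0.568, p of 0.0395 in double KD). Its retained-intron end also lacks the canonical signal within 50 nt and is followed by A-rich sequence, with 15 A in 20 nt.

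**Figure D4:**
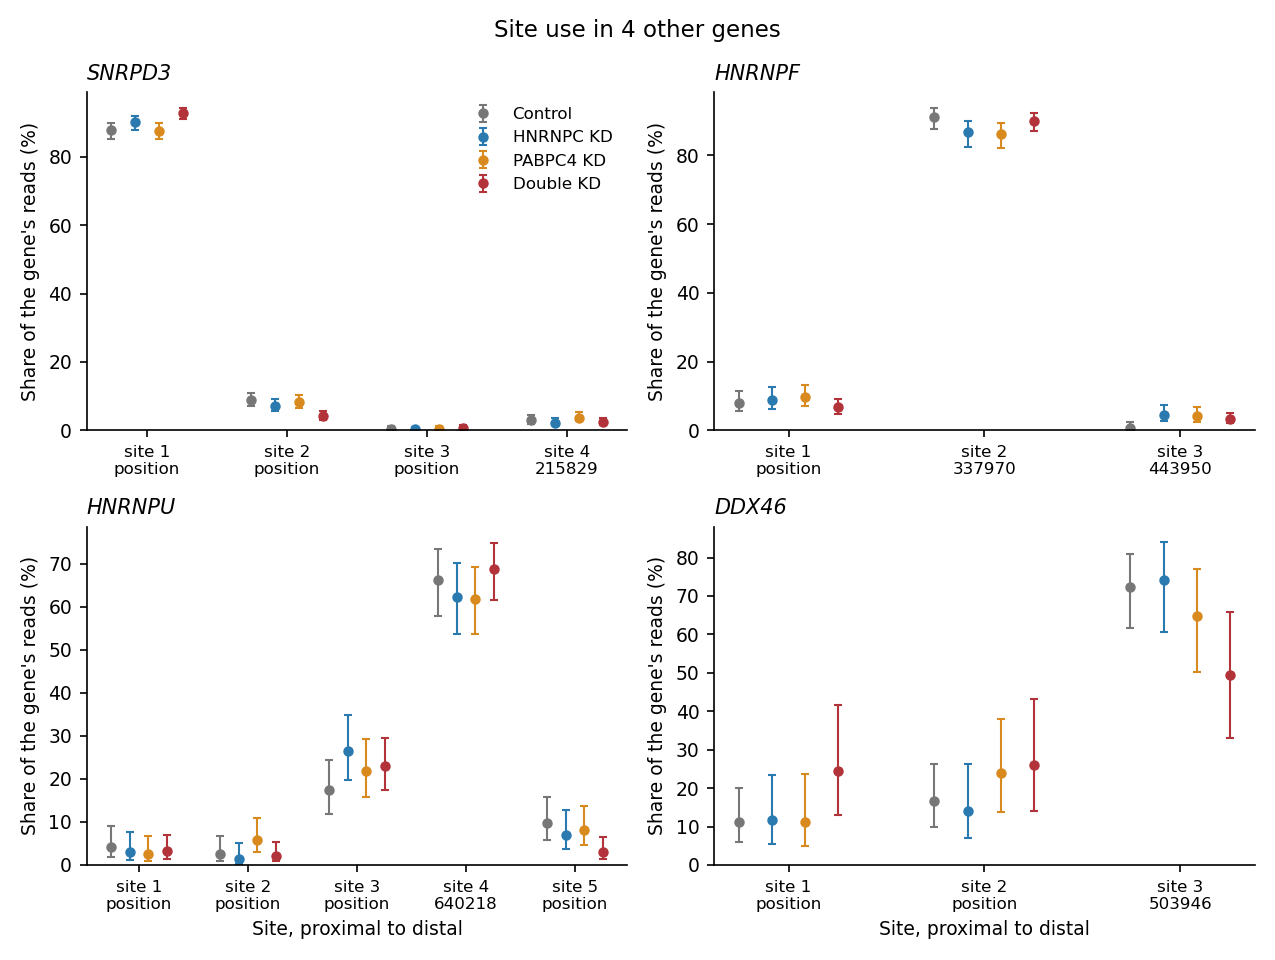
Share of reads (%) at each site of SNRPD3, HNRNPF, HNRNPU and DDX46 in control, HNRNPC KD, PABPC4 KD and double KD, sites ordered from proximal to distal and labelled with the digits of the transcript or as named by a position; bars are 95% Wilson intervals. The second SNRPD3 site falls to 4.17% in double KD, the last HNRNPF site lies at 0.764% in control and at 3.25% to 4.4% in the knockdowns, and the DDX46 retained-intron end falls from 72.3% to 49.5% with intervals that overlap.

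Splicing genes outside the chosen prefixes, such as SFPQ, TIAL1 and SNRNP genes, were counted beside the members. They had 2 called pairs of 81 in HNRNPC KD (2.47%, beside 2.08% of all pairs), 1 of 72 in PABPC4 KD (1.39%, beside 0.756%) and 3 of 76 in double KD (3.95%, beside 4.33%). Those past an adjusted p of 0.05 were both in double KD and both toward the proximal site, ISY1 (1.32, SE 0.308, adjusted p of 0.00183), a component of the catalytic spliceosome, and SUGP1 (1.84, SE 0.564, adjusted p of 0.0482), an SF3B1 partner.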

How the data were processed

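3′-end libraries of 8 MDA-MB-231 samples were compared. The authors annotated unique Gencode v33 3′ ends, counted reads with Salmon 0.14.1, normalized them and fitted APAlog, a multinomial logistic regression; UMI-tools is also listed, with no role given for these libraries. The deposited tables hold the natural log of the proximal to distal change (logAPAR), its p-value and its q-value for each knockdown against control, pooled over 2 samples. These comparison columns are the only values in the tables, so they were used. Depth per library and the aligner are not given in the sources used here.

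Members and lists were chosen with earlier results of these data known. Wald errors were logAPAR over the normal quantile of p. Recomputed adjusted p-values equalled the deposited q-values. Reads were solved at genes with 3 or more sites shared by all tables (680 of 681), after tests on simulated data; in 99.6% of genes the natural log gave a closer solution than log2. Ends and sequences came from hg38 and Gencode 44. Named genes were members with a pair past p 0.01 in a table or difference, at most 10 each, by the pair of smallest p; further genes of a role were named where 5 or fewer of its pairs passed, which ones being chosen after their values were seen; genes of the other splicing list were named past an adjusted p of 0.05. p 0.01 follows the study. Scripts ran in Python 3.11.15 with pandas 2.3.3 and scipy 1.17.1. Alternatives were other thresholds, pair choices and errors. Some sequences and a gene are not reported here.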

Additional observations from a re-analysis of the deposited data

Results flagged for a closer look

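How far double KD lay from the added single knockdowns at the SRSF10 pair ENST00000485841.5 against ENST00000453840.7 is given here because the effect of losing 1 factor differed with the state of the other at an unadjusted p 0.01 in a direct test. It was -1.18 (SE 0.436, p of 0.007, adjusted p of 0.782 over 4692 pairs, z test with the upper-bound error). With the error from the solved reads it was -1.18 (SE 0.361, p of 0.00111, adjusted p of 0.126). Neither passed the adjustment. No library values are given, so no library could be checked for standing apart.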

How the results depend on the processing

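No paired analysis was possible because APAlog values, not library values, are all there is, and for the same reason no replicate could be left out. Member medians ran from 0.00666 to 0.154 in HNRNPC KD, from -0.0368 to 0.0927 in PABPC4 KD and from -0.0804 to 0.233 in double KD; both negative values came from taking all pairs. The counts of called member pairs moved as follows. At an adjusted p of 0.05 they were 0, 0 and 5 in HNRNPC KD, PABPC4 KD and double KD (2, 1 and 9 at p 0.01), and 0 in each of the 3 differences. At p 0.001 HNRNPC KD gave 0 and double KD 5. With 1 pair per gene, its first site against its last, they were 1 in HNRNPC KD, 3 in double KD and 0 in each difference. Without SRSF10, chosen after seeing the data, double KD kept 4 of its 9 calls. Its share of called pairs thus leaned on that gene and without it lay below the 4.33% of all pairs. With the error from solved reads the differences gave 5 (double KD minus PABPC4 KD), 5 (double KD minus HNRNPC KD) and 3 (departure from the sum), from 2, 2 and 1. Of 46 values of these counts and medians under alternatives, 29 stayed within 1.5 times the count or, for medians, within the 95% order-statistic interval over member genes. The Wald errors cover the reads of a pooled fit and not the spread between cultures, and the cause of the moves other than fewer pairs or a smaller error was not tested.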

Other observations

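Transcript ends followed by A-rich sequence were set against their partners, as values with no test, a grouping chosen after the data were seen. Of the members, 11 such ends were placed. In double KD the A-rich end was used less than its partner in 13 of 16 member pairs from 8 genes (81.2%), with a median log change of -0.751 for the end, and the 3 of these pairs past p 0.01 were all of SRSF10. Over all genes, 40 of 554 such pairs passed with the A-rich end used less and 12 with it used more. By the pair of smallest error for each end, 6 of 8 member ends were used less in double KD, 7 of 11 in HNRNPC KD and 3 of 9 in PABPC4 KD, beside 201 of 359, 165 of 349 and 171 of 360 ends over all genes. Over member pairs, the A-rich end was used less in HNRNPC KD in 11 of 18 (61.1%, median -0.25), and in PABPC4 KD in 7 of 16 (43.8%, median 0.112). Over all genes, A-rich ends were used less in 302 of 554 pairs in double KD (54.5%, median -0.0857), in 48.2% in HNRNPC KD and in 47.1% in PABPC4 KD. Pairs of a gene share ends, and the 3 tables share the control samples. The part of priming at genomic A runs in these values was not tested.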
